A study of Xenopus laevis with 18 samples.

Results

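The transcripts described here encode the aminoacyl-tRNA synthetases of the frog Xenopus laevis and the scaffold proteins aimp1 and aimp2, measured in oocytes and eggs. They are the 52 of 51026 named transcripts whose symbol has the form of a synthetase or scaffold name once the suffix L or S is removed. In this species many genes have a copy on a longer chromosome (L) and a copy on its shorter partner (S). The rule selects by name alone, but it was set with earlier results of these data known. The 52 transcripts belong to 35 genes, 17 of which had 2 rows. They comprise 33 transcripts of 20 cytosolic enzyme genes, 15 transcripts of 13 mitochondrial enzyme genes, whose names end in 2, and 4 scaffold transcripts. Of the 52 names, 46 matched a symbol in the RefSeq annotation Xenopus_laevis_v10.1, mostly under the current names such as aars1 for aars. In the authors' deposited classes along the animal-vegetal axis of the oocyte, 42 members were animal, wars2.S was extremely animal and 9 had no class.

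Each synthetase joins an amino acid to the tRNAs that decode it, the step that fixes the genetic code during translation. Animal cells use largely separate sets of these enzymes in the cytosol and in mitochondria, and all of them are encoded in the nucleus. The mitochondrial enzymes are made on cytosolic ribosomes and imported, while in mammals the glycyl and lysyl enzymes of both compartments come from the same genes, gars and kars. Several cytosolic enzymes assemble with the scaffold proteins aimp1 and aimp2 in the multisynthetase complex, and the others act free of it. A fully grown oocyte stores mRNA made earlier, and progesterone releases it from meiotic arrest to become an egg that can be fertilised.

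Oocytes and eggs were each separated into cytosol, endoplasmic reticulum (ER) and pellet, with 3 libraries, described as biological replicates, in each of the 6 groups and 4 cells per library. The oocytes were stage VI cells without their follicles, kept in culture medium at 18 °C. The eggs were such oocytes given 2 µM progesterone in the same medium, labelled as having passed germinal vesicle breakdown, the loss of the oocyte's nuclear envelope. Which frogs the libraries came from is not stated, so the tests measure only the variation among these libraries, and technical differences may add to it.

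The depth ran from 23095791 to 37834030 estimated counts per library. Replicate libraries correlated at 0.981 to 0.990 on the log2 TPM scale, and no pair differed as little as sampling noise. The first egg ER library, the shallowest of all, stood apart from its group. Its chi-square per degree of freedom was 14.3 against replicate 2 and 19.9 against replicate 3. Between replicates 2 and 3 it was 3.78. Of 20 transcripts that mark oocytes, 19 reached a mean of 1 TPM in every group, and 14 blood markers summed to at most 2.72 TPM in any library. Follicle-cell markers could be tested for 19 transcripts. Of these, 14 were higher in the oocyte pellet than in the oocyte cytosol, against 35.6% of all transcripts. In the egg pellet 17 were higher than in the egg cytosol, against 34.4% of all transcripts. Of 25 follicle-cell markers, 8 reached a mean of 1 TPM in oocyte cytosol, 14 in oocyte pellet, 9 in egg cytosol and 13 in egg pellet. Summed follicle markers were at 839 to 864 TPM in oocyte cytosol and 814 to 840 TPM in oocyte pellet, and at 788 to 838 TPM in egg cytosol and 952 to 988 TPM in egg pellet. Their part in the pellet results below was not tested.

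Nearly all synthetase mRNAs were present throughout. Of the 52 members, 48 were at 1 TPM or more in each of the 18 libraries (TPM is a level corrected for transcript length and library size). The exceptions were cars2.S, lars.S, pars2.L and vars.L. On the TPM scale the median of the mean levels was 27.7 for the cytosolic enzymes, 16.1 for the mitochondrial enzymes and 21.2 for the scaffold transcripts. The alanyl enzyme aars.L had the highest mean level, 71.5 TPM, followed by the threonyl enzyme tars.L at 64.1 and the glycyl enzyme gars.L at 56.8. The 3 libraries of aars.L were highest in egg cytosol, at 113, 120.2 and 116 TPM, and lowest in egg ER, at 48.5, 50.5 and 47.8 TPM, and no library of another group lay outside that range. At the other end were cars2.S, the S copy of the mitochondrial cysteinyl enzyme, with a mean of 0.022 TPM, the leucyl lars.S at 0.829 and the valyl vars.L at 1.40. The row of cars2.S is the shortest of the members at 906 nt and was listed at 0 in all cytosol and ER libraries.

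**Figure D1:**
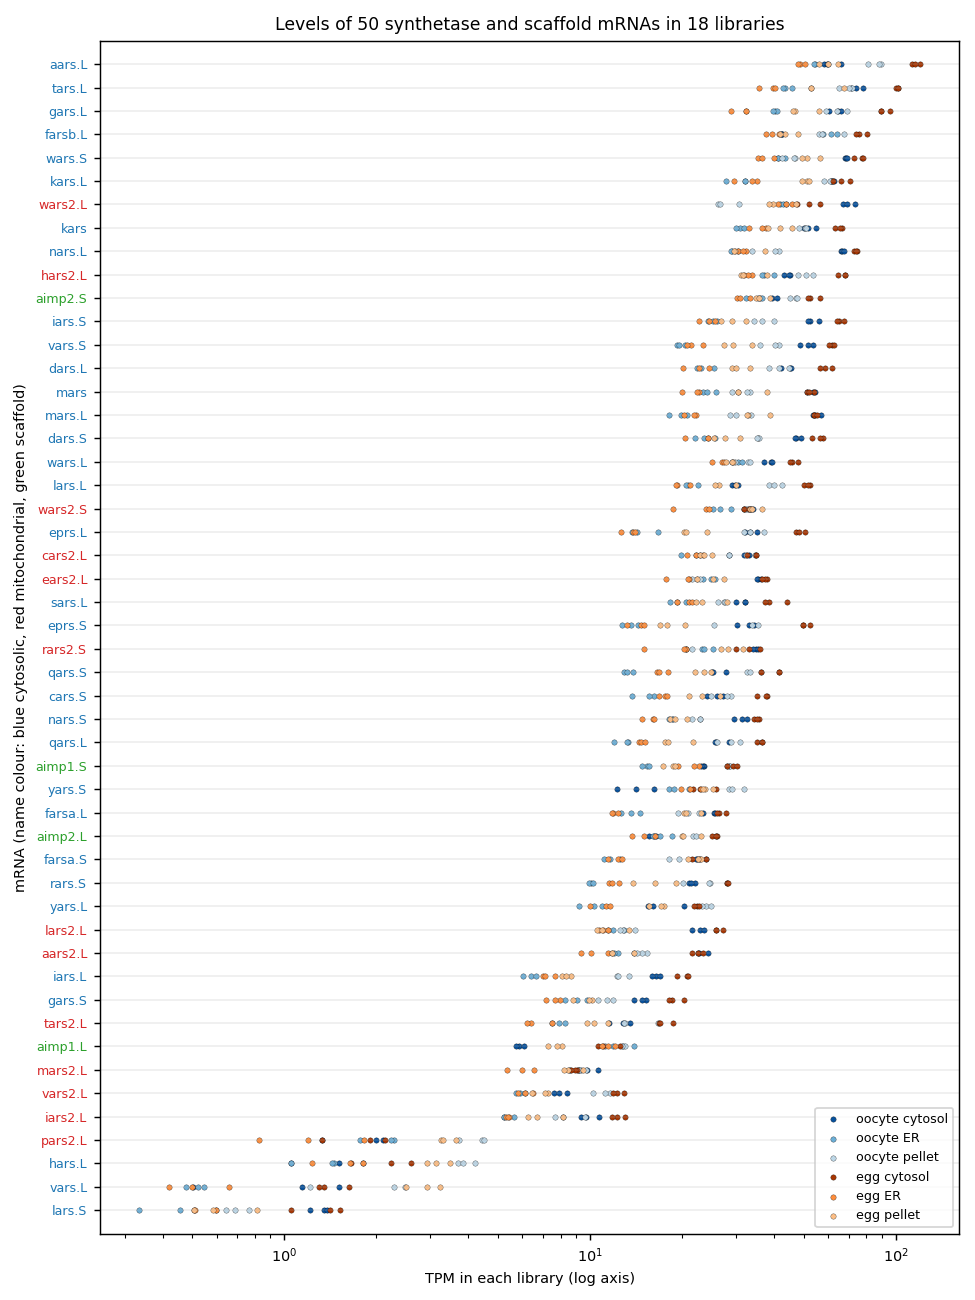
TPM of 50 members in each of the 18 libraries (log axis), ordered by mean level, with points coloured by stage and fraction and names coloured by class. The members run from lars.S, with a mean of 0.829 TPM, to aars.L at 71.5 TPM, and cars2.S, listed at 0 in most libraries, and 1 other mitochondrial enzyme are not shown.

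For histidine the mitochondrial enzyme had the higher level. The cytosolic enzyme hars.L was at 1.81, 1.505 and 1.06 TPM in the 3 oocyte cytosol libraries, whereas the mitochondrial enzyme hars2.L was at 43.2, 45.2 and 44.8 TPM there. In egg cytosol hars.L was at 2.24, 2.59 and 1.65 TPM and hars2.L at 68.1, 68.3 and 64.5 TPM. All hars2.L libraries were above all hars.L libraries. In the RefSeq annotation hars1.L and hars2.L lie on chromosome 3L with 1 gene between them, and which of the deposited models a read joined was decided by the authors' quantification. Tryptophan showed a smaller gap between compartments, and its direction depended on the copies compared. The mitochondrial wars2.L, at a mean of 46.3 TPM, lay between the cytosolic wars.S at 53.6 and wars.L at 33.7. The other mitochondrial copy, wars2.S, is left out of this comparison.

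On the attomolar scale, which the authors set from RNA spike-ins, synthetase mRNA lay mainly in the cytosol and moved further towards it in eggs. Shares are given for the 48 members at 1 TPM or more in every library, as a fraction's percent of the transcript's sum over the 3 fractions. The median share of the cytosolic enzymes in the cytosol was 57.0% ± 4.51 (SD, n = 3) in oocytes and 74.4% ± 5.17 in eggs. That of the mitochondrial enzymes was 55.1% ± 3.81 in oocytes and 70.6% ± 3.65 in eggs, and the median of the 18241 transcripts held to the same TPM minimum went from 52.9% ± 3.70 to 68.4% ± 4.31. Within each replicate the cytosolic enzymes stood 3.62, 5.06 and 3.47 percentage points above the median transcript in oocytes and 4.97, 6.15 and 6.98 points above it in eggs. Scaffold transcripts had the lowest median in oocyte cytosol, 44.2% ± 4.65, and reached 67.0% ± 3.85 in eggs.

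In the ER the order was reversed. The median ER share in oocytes was 27.0% ± 3.45 for cytosolic enzymes, 32.2% ± 2.34 for mitochondrial enzymes, 38.8% ± 2.00 for scaffold transcripts and 33.4% ± 2.32 for all transcripts. In eggs the same medians were 14.7% ± 1.36, 17.7% ± 2.48, 21.3% ± 2.27 and 18.7% ± 2.43. The ER share was below every oocyte library in all 3 egg libraries for 30 of 31 cytosolic, 13 of 13 mitochondrial and 4 of 4 scaffold transcripts. The same held for 93.6% of those 18241 transcripts, so these counts are near the background. These shares move together, since the 3 fractions of a transcript sum to 100% in each replicate and the authors' totals over fractions were equal for both stages.

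**Figure D2:**
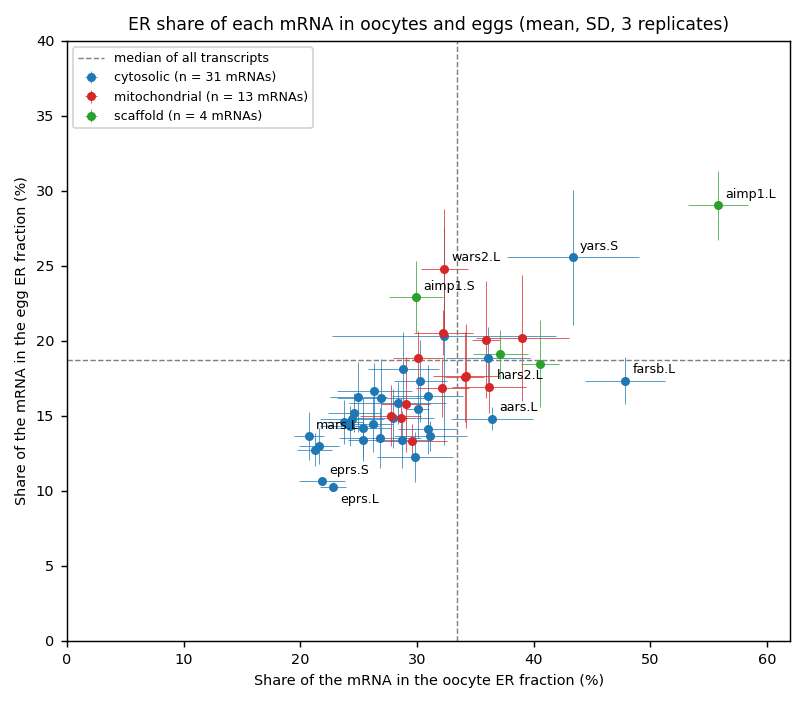
Percent of each mRNA's attomolar sum found in the ER fraction of oocytes (horizontal) and eggs (vertical), as the mean and SD of 3 replicates for 48 members, with dashed lines at the medians of all transcripts. The scaffold transcript aimp1.L lies farthest out on both axes, at 55.8% in oocytes and 29.0% in eggs, and eprs.L has the lowest share in eggs, 10.3%.

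Summed over the 3 fractions, the cytosolic enzymes came to 65.0 ± 2.34 aM (SD, n = 3) in oocytes and 83.7 ± 5.85 aM in eggs, a ratio of 1.29. The mitochondrial enzymes came to 20.5 ± 0.743 aM and 22.3 ± 1.91 aM, a ratio of 1.09, and the scaffold transcripts to 5.49 ± 0.290 aM and 6.98 ± 0.606 aM, a ratio of 1.27. Per transcript the median egg to oocyte ratio was 1.30 over cytosolic enzymes, 1.10 over mitochondrial enzymes and 1.11 over those 18241 transcripts. As the authors' totals are equal for both stages, these ratios are relative to the whole transcriptome. All 31 cytosolic transcripts had a ratio above 1, against 10 of 13 mitochondrial transcripts and 74.6% of all transcripts. Members are not replicates, so no test of these class differences is given. Each library is a bulk sample of 4 cells, in which fewer cells holding an mRNA and less of it per cell cannot be told apart.

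The tests that follow used counts scaled with TMM factors, which place the typical transcript near no change, so a log2 fold change says how a transcript moved relative to the others. Values per library are normalised counts scaled to a common library size (CPM). Scaled to the spike-ins instead, the median of all tested transcripts shifted by -0.81 in oocyte ER against cytosol, -1.68 in oocyte pellet against cytosol, -1.80 in egg ER against cytosol and -1.94 in egg pellet against cytosol. Between stages that shift was 0.24 for cytosol, -0.71 for ER and 0.038 for pellet. On the attomolar scale the corresponding shifts were -0.49, -1.61, -1.63 and -2.13 for the fractions and 0.46, -0.55 and 0.0006 between stages. Where the direction of a named synthetase or scaffold transcript differs on the spike-in or attomolar scale, it is given with the result. Comparisons that share a group share its libraries, so their results are not independent.

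In oocytes, mRNAs of the cytosolic enzymes were depleted from the ER relative to other transcripts. Of 51 members tested in oocyte ER against cytosol, 10 were higher and 31 lower at an adjusted p under 0.05, where 24.3% of all transcripts were called higher and 24.8% lower. The spike-in scale gave 1 higher and 42 lower, with 2.56% and 60.3% of all transcripts, and limma on attomolar values gave 1 higher and 34 lower, with 2.46% and 33%. Among cytosolic enzymes 3 were higher and 26 lower of 33, with a median log2 fold change of -0.43 against 0.0004 over all transcripts tested. Mitochondrial enzymes were split, 4 higher and 5 lower of 14 with a median of -0.062. Of 4 scaffold transcripts 3 were higher and none lower, with a median of 0.44, which is below 0 on the spike-in scale (-0.37) and on the attomolar scale (-0.18).

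The depletion covered the enzymes of the multisynthetase complex almost without exception. Of its 15 enzyme transcripts 14 were lower and none higher in the oocyte ER, with a median of -0.61, while 12 of 18 free cytosolic enzymes were lower and 3 higher, with a median of -0.26. The methionyl enzyme mars.L was at 76.4, 76.7 and 79.995 CPM in oocyte cytosol and 40.4, 36.4 and 38.3 CPM in oocyte ER, a log2 fold change of -1.02 ± 0.059 (SE, edgeR adjusted p = 5.2e-12). The bifunctional glutamyl-prolyl enzyme eprs.S was at 69.3, 70.7 and 62.3 CPM in oocyte cytosol and 38.9, 42.2 and 35.8 CPM in oocyte ER, a change of -0.79 ± 0.098 (SE, edgeR adjusted p = 6.7e-07). For both, every ER library was below every cytosol library. The mitochondrial leucyl enzyme lars2.L had the strongest depletion of its class, from 60.6, 63.7 and 65.4 CPM in cytosol to 49.9, 47.3 and 43.6 CPM in the ER, a change of -0.43 ± 0.065 (SE, edgeR adjusted p = 9.6e-06).

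The cytosolic enzymes called higher in the oocyte ER were all free enzymes. The beta subunit of the phenylalanyl enzyme, farsb.L, was at 43.5, 42.6 and 42.9 CPM in cytosol and 90.2, 88.4 and 79.7 CPM in the ER, a change of 1.00 ± 0.065 (SE, edgeR adjusted p = 3.1e-11). On the spike-in scale its change was 0.18 and on the attomolar scale 0.38, both short of the threshold. The tyrosyl enzyme yars.S was at 12.01, 13.6 and 10.2 CPM in cytosol and 21.2, 25.2 and 21.5 CPM in the ER, a change of 0.92 ± 0.093 (SE, edgeR adjusted p = 3.3e-08). Its libraries did not overlap, and its change was 0.094 on the spike-in scale, short of the threshold. The alanyl enzyme aars.L was at 108, 121 and 108 CPM in cytosol and 137, 157 and 135 CPM in the ER, a change of 0.35 ± 0.066 (SE, edgeR adjusted p = 0.00012) that turned to -0.47 on the spike-in scale and -0.30 on the attomolar scale. With limma on TPM it was -0.12, short of the threshold, so its direction depended on the scale.

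The scaffold gene aimp1 held the member with the largest ER enrichment, and its copies differed. The row aimp1.L was at 7.02, 7.18 and 6.77 CPM in oocyte cytosol and 22.8, 20.1 and 20.7 CPM in oocyte ER, a change of 1.60 ± 0.091 (SE, edgeR adjusted p = 3.7e-12). The row aimp1.S was at 13.8, 13.6 and 13.4 CPM in cytosol and 12.3, 12.9 and 11.7 CPM in the ER, a change of -0.14 ± 0.076 (SE, edgeR adjusted p = 0.13). It was called lower on the spike-in scale (-0.96), the attomolar scale (-0.78) and with limma on TPM (-0.61), and its ratio of cytosol over ER in the authors' deposited table is 1.73 with a q-value of 0.00065. Every aimp1.L library of the ER was above every cytosol library, whereas those of aimp1.S lay just below. The attomolar values of aimp1.L were 0.15005, 0.163 and 0.162 aM in cytosol and 0.345, 0.301 and 0.338 aM in the ER, so it was higher in the ER on that scale too. The authors' deposited table gives a ratio of 0.482 for oocyte cytosol over ER of aimp1.L, with a q-value of 0.00232, and it and farsb.L, with a ratio of 0.766 and a q-value of 0.00147, were the members called higher in the ER there. There, 42 of 51 members were called higher in oocyte cytosol, against 33.3% of all transcripts, and 2 lower, against 2.83%.

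**Figure D3:**
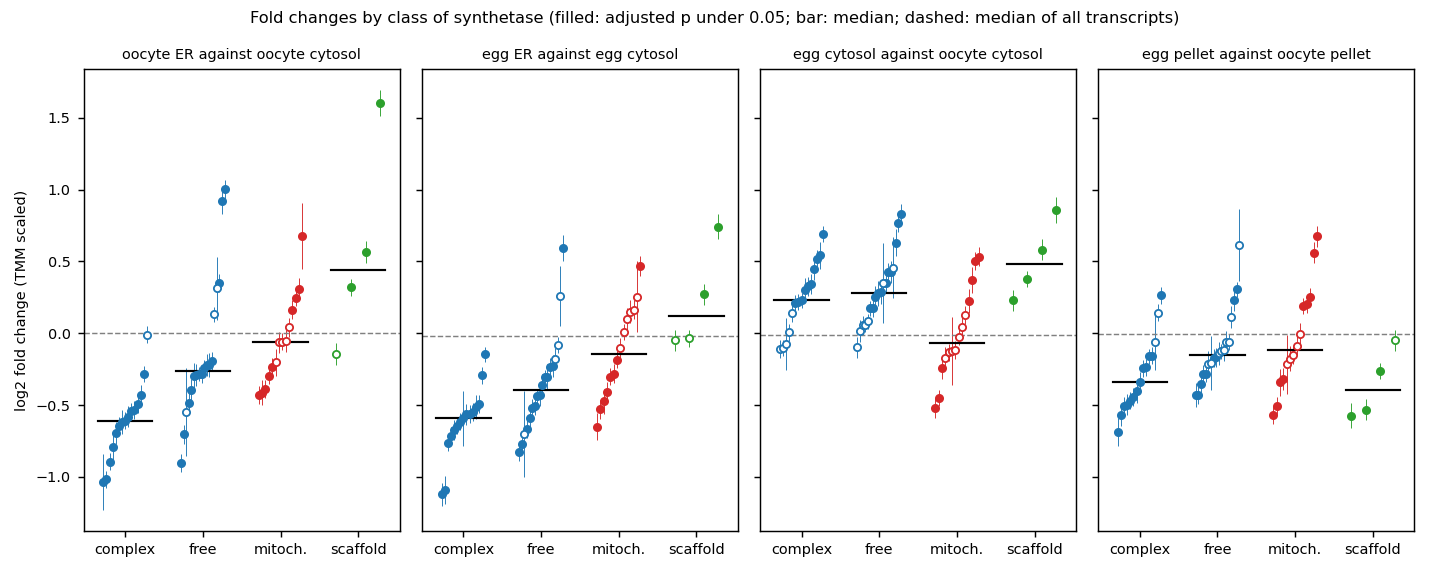
Log2 fold change (TMM scaled) with its standard error for 51 members in 4 comparisons, by class, with called members filled, a bar at each class median and a dashed line at the median of all transcripts. All enzymes of the multisynthetase complex lie below the dashed line in both ER panels, and cytosolic enzymes lie mostly above it in egg against oocyte cytosol, with 21 of 33 called higher.

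In eggs the cytosolic enzymes were again low in the ER. In egg ER against egg cytosol 4 members were higher and 35 lower of 51, where 18.4% and 21.7% of all transcripts were called. Scaled to the spike-ins, none was higher and 51 were lower, with 0.54% and 92.7% of all transcripts, as on the attomolar scale, with 0.382% and 90.5%. Cytosolic enzymes had 1 higher and 28 lower of 33 with a median of -0.52, mitochondrial enzymes 1 higher and 7 lower of 14 with a median of -0.15, and scaffold transcripts 2 higher of 4 with a median of 0.12. The scaffold median fell below 0 on the spike-in scale (-1.67), where the median of all transcripts was -1.80. All 15 enzymes of the multisynthetase complex were lower, with a median of -0.59.

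Both copies of eprs led the depletion. The row eprs.L was at 134, 142 and 137 CPM in egg cytosol and 69.5, 63.3 and 57.4 CPM in egg ER, a change of -1.12 ± 0.078 (SE, edgeR adjusted p = 2.1e-10). The row eprs.S was at 97.3, 101 and 96.2 CPM in egg cytosol and 50.7, 46.3 and 41.2 CPM in egg ER, a change of -1.09 ± 0.098 (SE, edgeR adjusted p = 1.1e-08). The ER libraries were below all cytosol libraries for both copies, and their ER shares of 10.3% and 10.6% were the lowest among the cytosolic enzymes. The glycyl enzyme gars.L went from 104, 109.8 and 104 CPM in cytosol to 59.2, 59.4 and 60.4 CPM in the ER, a change of -0.83 ± 0.062 (SE, edgeR adjusted p = 6.4e-10). The mitochondrial threonyl enzyme tars2.L was the lowest of its class, at 20.2, 22.2 and 20.2 CPM in egg cytosol and 13.6, 14.2 and 11.9997 CPM in egg ER, a change of -0.65 ± 0.095 (SE, edgeR adjusted p = 9.5e-06).

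With TMM scaling yars.S and wars2.L were higher in the egg ER, but the direction depended on the scale. The row yars.S was at 18.2, 20.3 and 17.2 CPM in egg cytosol and 27.9, 26.6 and 29.3 CPM in egg ER, a change of 0.59 ± 0.090 (SE, edgeR adjusted p = 1.5e-05) that turned to -1.18 on the spike-in scale and -1.20 on the attomolar scale. The mitochondrial tryptophanyl enzyme wars2.L was at 33.2, 35.7 and 30.2 CPM in egg cytosol and 46.2, 44.1 and 46.8 CPM in egg ER, a change of 0.47 ± 0.069 (SE, edgeR adjusted p = 1e-05) that turned to -1.30 on the spike-in scale and -1.33 on the attomolar scale. With limma on TPM, yars.S was at -0.13, short of the threshold, wars2.L was called lower at -0.25, and no member was called higher. In both, the ER libraries lay above the cytosol libraries on the CPM scale. Their ER shares, 25.5% ± 4.49 and 24.8% ± 4.01, were the highest of their classes in eggs.

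Between the stages, mRNAs of many cytosolic enzymes were higher in the cytosol of eggs. In egg against oocyte cytosol 29 members were higher and 3 lower of 51, where 18.4% and 18.6% of all transcripts were called. On the spike-in scale 13 were higher and none lower, with 10.1% and 2.45% of all transcripts, and on the attomolar scale 19 were higher and none lower, with 18.4% and 1.1%. Cytosolic enzymes had 21 higher and none lower of 33, with a median of 0.28 against -0.015 over all transcripts. Mitochondrial enzymes had 4 higher and 3 lower of 14 with a median of -0.071, which was above 0 on the spike-in scale (0.19). All 4 scaffold transcripts were higher, with a median of 0.48. Of the enzymes of the complex 10 of 15 were higher, and of the free enzymes 11 of 18, with medians of 0.23 and 0.28.

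Among cytosolic enzymes aars.L had the largest increase. It also had the highest mean TPM over all libraries, a mean that includes its egg cytosol values. The alanyl enzyme aars.L was at 108, 121 and 108 CPM in oocyte cytosol and 195, 206 and 199 CPM in egg cytosol, a change of 0.83 ± 0.065 (SE, edgeR adjusted p = 1.1e-09). In attomolar units it was at 1.77, 2.15 and 1.74 aM in oocyte cytosol and 4.02, 5.14 and 4.82 aM in egg cytosol. No egg library overlapped an oocyte library on either scale, and the authors' deposited table gives a ratio of 2.47 with a q-value of 0.0423. The phenylalanyl subunit farsb.L was at 43.5, 42.6 and 42.9 CPM in oocytes and 72.5, 70.4 and 77.004 CPM in eggs, a change of 0.77 ± 0.064 (SE, edgeR adjusted p = 3e-09). The leucyl enzyme lars.L, which in mammals also senses leucine, was at 63.3, 65.1 and 63.8 CPM in oocytes and 101, 105 and 104 CPM in eggs, a change of 0.69 ± 0.058 (SE, edgeR adjusted p = 2.9e-09). Their egg libraries were all above their oocyte libraries. The glutamyl-prolyl eprs.S was at 69.3, 70.7 and 62.3 CPM in oocytes and 97.3, 101 and 96.2 CPM in eggs, a change of 0.54 ± 0.095 (SE, edgeR adjusted p = 8.2e-05). The scaffold row aimp1.L was at 7.02, 7.18 and 6.77 CPM in oocytes and 11.9, 13.9 and 12.3 CPM in eggs, a change of 0.86 ± 0.092 (SE, edgeR adjusted p = 1.2e-07).

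**Figure D4:**
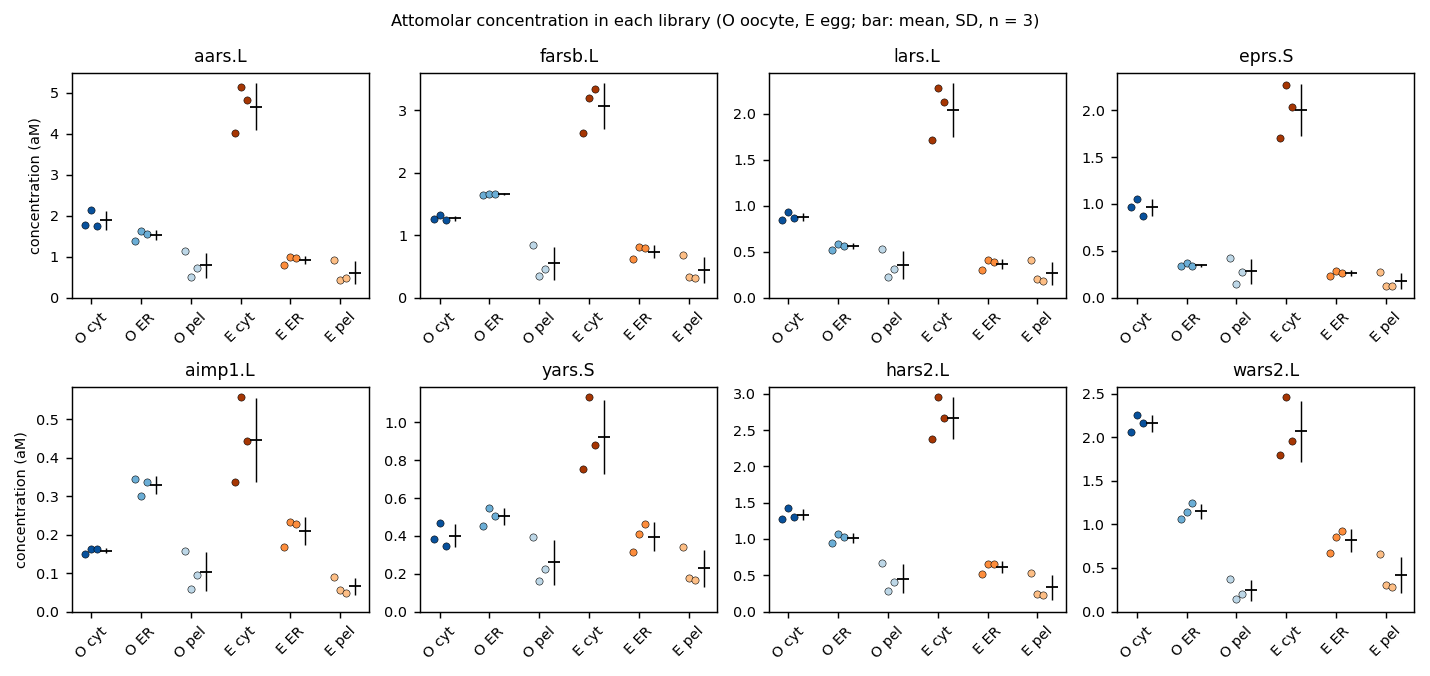
Attomolar concentration of 8 members in each library of the 6 groups (O oocyte, E egg; axes start at 0), with the mean and SD of 3 libraries beside the points. For aars.L, farsb.L, lars.L, eprs.S and hars2.L the 3 egg cytosol libraries lie above all oocyte cytosol libraries, whereas for wars2.L they overlap.

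The mitochondrial enzymes moved in both directions. The histidyl hars2.L was at 60.6, 62.6 and 61.96 CPM in oocyte cytosol and 89.5, 88.7 and 84.2 CPM in egg cytosol, a change of 0.50 ± 0.060 (SE, edgeR adjusted p = 6.4e-07). The valyl vars2.L was at 15.9, 17.2 and 16.1 CPM in oocytes and 23.7, 24.7 and 22.9 CPM in eggs, a change of 0.53 ± 0.065 (SE, edgeR adjusted p = 8.4e-07). Both were higher in every egg library. In the other direction, wars2.L was at 45.9, 46.5 and 49.5 CPM in oocytes and 33.2, 35.7 and 30.2 CPM in eggs, a change of -0.52 ± 0.068 (SE, edgeR adjusted p = 2.2e-06). It was lower in every egg library on the CPM scale, but the change was -0.26 on the spike-in scale and -0.075 on the attomolar scale, both short of the threshold. On the attomolar scale the 3 egg libraries were above all oocyte libraries for 30 of 31 cytosolic, 10 of 13 mitochondrial and 4 of 4 scaffold transcripts, and for 65.9% of those 18241 transcripts. By the q-values of the authors' deposited table, 9 of 51 members were called higher in egg than in oocyte cytosol and none lower, against 7.7% and 0.91% of all transcripts.

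In the ER, the direction between stages depended on the scale. In egg ER against oocyte ER 17 members were higher and 4 lower of 51, where 12.4% and 16.1% of all transcripts were called. This split turned on the spike-in scale to none higher and 30 lower, with 0.79% and 61.3% of all transcripts, and on the attomolar scale to none higher and 8 lower, with 0.428% and 26.2%. By the q-values of the authors' deposited table, 26 of 51 members were lower and none higher, against 27.4% and 0.348% of all transcripts. Without the first oocyte ER library 11 were higher, and without the second oocyte ER library or the first egg ER library 2 were lower. Cytosolic enzymes had 14 higher and 2 lower of 33 with a median of 0.21, which was -0.50 on the spike-in scale, above the -0.71 of all transcripts there. The glutaminyl enzyme qars.S was at 22.9, 24.3 and 24.3 CPM in oocyte ER and 35.5, 34.4 and 32.6 CPM in egg ER, a change of 0.52 ± 0.067 (SE, edgeR adjusted p = 4e-06) that was -0.20 on the spike-in scale. The scaffold row aimp1.S was at 12.3, 12.9 and 11.7 CPM in oocyte ER and 18.8, 19.7 and 19.2 CPM in egg ER, a change of 0.64 ± 0.076 (SE, edgeR adjusted p = 1.3e-06) that was -0.059 on the spike-in scale. Both were above the oocyte libraries in every egg library on the CPM scale.

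Both farsb.L and mars2.L were lower in the egg ER under every scaling tried. The subunit farsb.L was at 90.2, 88.4 and 79.7 CPM in oocyte ER and 63.7, 62.9 and 60.2 CPM in egg ER, a change of -0.47 ± 0.064 (SE, edgeR adjusted p = 9.1e-06). In attomolar units it was at 1.64, 1.67 and 1.66 aM in oocyte ER and 0.614, 0.808 and 0.792 aM in egg ER, with no overlap. The mitochondrial methionyl enzyme mars2.L was at 14.9, 15.5 and 16.1 CPM in oocyte ER and 11.2, 11.3 and 12.5 CPM in egg ER, a change of -0.41 ± 0.079 (SE, edgeR adjusted p = 0.00048). Its 3 egg libraries were all below the oocyte libraries.

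Whether the ER to cytosol difference itself changed between oocyte and egg was tested as an interaction. Of 51 members 6 moved towards the ER and 14 towards the cytosol, where 12.4% and 14.7% of all transcripts were called. With spike-in scaling none moved towards the ER and 43 towards the cytosol, with 0.493% and 57.3% of all transcripts, and so did limma on attomolar values, with 0.297% and 59.5%. The class medians were -0.053 for cytosolic enzymes, -0.08 for mitochondrial enzymes and -0.49 for scaffold transcripts. The largest shift was that of farsb.L, at -1.24 ± 0.091 (SE, edgeR adjusted p = 7.8e-10). Its ER share went from 43.8, 50.1 and 49.5% in the oocyte replicates to 15.6, 18.6 and 17.8% in the egg replicates, with no overlap. The alanyl aars.L shifted by -0.87 ± 0.092 (SE, edgeR adjusted p = 2.1e-07) and the glycyl gars.L by -0.63 ± 0.087 (SE, edgeR adjusted p = 7.1e-06). The ER share of aars.L went from 32.3, 38.1 and 38.8% to 13.9, 14.98 and 15.5% and that of gars.L from 26.4, 30.3 and 32.8% to 10.5, 12.3 and 13.9%. The scaffold row aimp1.L shifted by -0.86 ± 0.13 (SE, edgeR adjusted p = 1.5e-05) and the mitochondrial hars2.L by -0.55 ± 0.086 (SE, edgeR adjusted p = 3.7e-05). Of the 6 members that moved towards the ER, wars2.L had the largest change, at 0.71 ± 0.097 (SE, edgeR adjusted p = 7.2e-06), which turned to -0.26 on the spike-in scale, where the median of all transcripts was -0.97. Its ER share went from 30.3, 32.3 and 34.4% in oocytes to 21.5, 23.6 and 29.3% in eggs, and all egg replicates were below the oocyte replicates.

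The pellet share of synthetase mRNA had a wide spread at both stages. The median pellet share of cytosolic enzymes was 15.1% ± 6.02 in oocytes and 10.9% ± 6.24 in eggs, against 12.4% ± 4.81 and 12.03% ± 6.34 over all transcripts. The first pellet replicate of each stage had the highest attomolar total of the 3. The pellet libraries of the stages overlapped for each of the 48 members on that scale. Over all transcripts the egg libraries were all above for only 3.04% and all below for 1.6%, so this overlap is near the background. Relative to cytosol, the oocyte pellet had 25 members higher and 16 lower of 51, where 35.6% and 32.6% of all transcripts were called. The egg pellet had 9 higher and 35 lower, where 34.4% and 32.4% were called. Scaled to the spike-ins, none was higher and 47 lower in the oocyte pellet, with 3.89% and 82.8% of all transcripts, and none was higher and 50 lower in the egg pellet, with 3.2% and 87.2%. On the attomolar scale none was higher in either pellet, with 2.36% and 1.6% of all transcripts, while 48 and 51 were lower, with 81% and 90.3%. The median of the cytosolic enzymes was 0.12 in the oocyte pellet, -1.64 on the spike-in scale, and -0.40 in the egg pellet.

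Single members of the oocyte pellet stood out in both directions. The tyrosyl yars.S was at 12.01, 13.6 and 10.2 CPM in oocyte cytosol and 30.5, 27.6 and 28.8 CPM in oocyte pellet, a change of 1.28 ± 0.092 (SE, edgeR adjusted p = 5.9e-11) that turned to -0.48 on the spike-in scale. The scaffold row aimp1.L was at 7.02, 7.18 and 6.77 CPM in cytosol and 17.6, 15.3 and 17.7 CPM in pellet, a change of 1.27 ± 0.091 (SE, edgeR adjusted p = 5.7e-11) that turned to -0.48 on the spike-in scale. Both had every pellet library above every cytosol library on the CPM scale. The mitochondrial wars2.L was at 45.9, 46.5 and 49.5 CPM in cytosol and 23.7, 20.5 and 21.05 CPM in pellet, a change of -1.12 ± 0.070 (SE, edgeR adjusted p = 6.5e-12), and mars.L was at 76.4, 76.7 and 79.995 CPM and 54.2, 46.8 and 49.9 CPM, a change of -0.63 ± 0.058 (SE, edgeR adjusted p = 3e-09). For these the pellet libraries were all below the cytosol libraries.

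In the egg pellet, eprs.S was at 97.3, 101 and 96.2 CPM in cytosol and 49.3, 44.5 and 47.04 CPM in pellet, a change of -1.06 ± 0.096 (SE, edgeR adjusted p = 2.8e-09). The isoleucyl iars.L was at 45.98, 42.3 and 46.2 CPM in cytosol and 23.8, 23.97 and 24.8 CPM in pellet, a change of -0.89 ± 0.058 (SE, edgeR adjusted p = 2.2e-11). The mitochondrial lars2.L was at 68.2, 67.4 and 71.2 CPM in cytosol and 43.7, 37.3 and 38.7 CPM in pellet, a change of -0.79 ± 0.065 (SE, edgeR adjusted p = 7e-10). For all 3 the pellet libraries were below the cytosol libraries. Of the 15 enzymes of the complex 14 were lower in the egg pellet and none higher.

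Between stages, 8 members were higher and 26 lower of 51 in egg pellet against oocyte pellet, where 22.3% and 21.4% of all transcripts were called. With spike-in scaling 1 was higher and none lower, with 5.46% and 4.74% of all transcripts, and on the attomolar scale none was called, with 1.6% and 1.3%. Cytosolic enzymes had 3 higher and 19 lower of 33, with a median of -0.21 that was -0.16 on the spike-in scale. The eprs.S row was at 80.05, 61.04 and 85.7 CPM in oocyte pellet and 49.3, 44.5 and 47.04 CPM in egg pellet, a change of -0.69 ± 0.097 (SE, edgeR adjusted p = 4.8e-06). The mitochondrial vars2.L was at 27.3, 26.6 and 24.6 CPM in oocyte pellet and 17.5, 16.8 and 18.5 CPM in egg pellet, a change of -0.57 ± 0.065 (SE, edgeR adjusted p = 2.9e-07). Both were lower in every egg library. The mitochondrial wars2.L was at 23.7, 20.5 and 21.05 CPM in oocyte pellet and 37.1, 33.9 and 32.9 CPM in egg pellet, a change of 0.67 ± 0.071 (SE, edgeR adjusted p = 9.2e-08), and the arginyl rars2.S was at 22.8, 22.1 and 22.4 CPM and 34.3, 33.3 and 31.7 CPM, a change of 0.56 ± 0.074 (SE, edgeR adjusted p = 1.9e-06). Both were higher in every egg library, and on the spike-in scale rars2.S, eprs.S and vars2.L kept their direction but missed the threshold.

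As an interaction, 9 members moved towards the pellet and 32 towards the cytosol, where 23.7% and 23.4% of all transcripts were called. Scaled to the spike-ins, 1 moved towards the pellet and 17 towards the cytosol, with 5.65% and 12.4% of all transcripts, and on the attomolar scale none and 13, with 2.34% and 12.2%. Cytosolic enzymes had 4 and 23 of 33 with a median of -0.46, mitochondrial enzymes 5 and 5 of 14 with a median of -0.056, and all 4 scaffold transcripts moved towards the cytosol with a median of -0.70. The shifts were -1.43 ± 0.13 (SE, edgeR adjusted p = 3.9e-09) for aimp1.L and -1.26 ± 0.092 (SE, edgeR adjusted p = 1.9e-10) for aars.L. Those of eprs.S and vars2.L were -1.23 ± 0.14 (SE, edgeR adjusted p = 1e-07) and -1.10 ± 0.092 (SE, edgeR adjusted p = 1.5e-09). All 4 moved towards the cytosol relative to other transcripts. The mitochondrial wars2.L moved the other way by 1.19 ± 0.098 (SE, edgeR adjusted p = 1.2e-09), as did rars2.S by 0.73 ± 0.10 (SE, edgeR adjusted p = 3.4e-06). The change of rars2.S missed the threshold on the spike-in scale (0.52) and on the attomolar scale (0.30), and that of wars2.L on the attomolar scale (0.83).

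Of the genes with 2 rows, 16 could be tested in both, and the rows of a gene did not always move together. Reads that fit both copies are divided between them by estimation in the authors' quantification, so differences between copies are uncertain where their sequences are alike. The rows kars and mars carry no suffix, matched no RefSeq symbol, and were paired with kars.L and mars.L by name alone. In oocyte ER against cytosol 10 of 16 pairs, kars and mars among them, were called in the same direction, 2 were called in opposite directions, and the median gap between copies was 0.32 on the log2 scale. The opposite pairs were yars, with 14.6, 18.1 and 13.8 CPM in cytosol and 11.4, 13.2 and 13.4 CPM in the ER for yars.L against the rise of yars.S above, and wars2. In egg against oocyte cytosol 7 of 16 pairs were called in the same direction and none in opposite directions, with a median gap of 0.18. How often the copies of other genes differ was not counted. Over the other comparisons lars, vars and wars2 were opposite in oocyte pellet against cytosol, and vars in egg pellet against cytosol. The yars pair was opposite in egg ER against cytosol, aimp1 in the ER interaction and wars in the pellet interaction. All these calls used TMM scaling. On the spike-in and attomolar scales 0 members were called higher in egg ER and in either pellet against cytosol, or in the ER interaction. No pair was therefore opposite there. In oocyte ER against cytosol yars.S was short of the threshold on both scales. In that comparison aimp1 was an opposite pair off the TMM scale, with aimp1.L still called higher. The row aimp1.S was called lower there on the spike-in scale (-0.96), the attomolar scale (-0.78) and with limma on TPM (-0.61). The rows lars.S and vars.L are low, at means of 0.829 and 1.40 TPM. The share of aimp1 TPM that came from aimp1.L was 20.1% ± 0.369 (SD, n = 3) in oocyte cytosol and 45.7% ± 2.19 in oocyte ER.

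**Figure D5:**
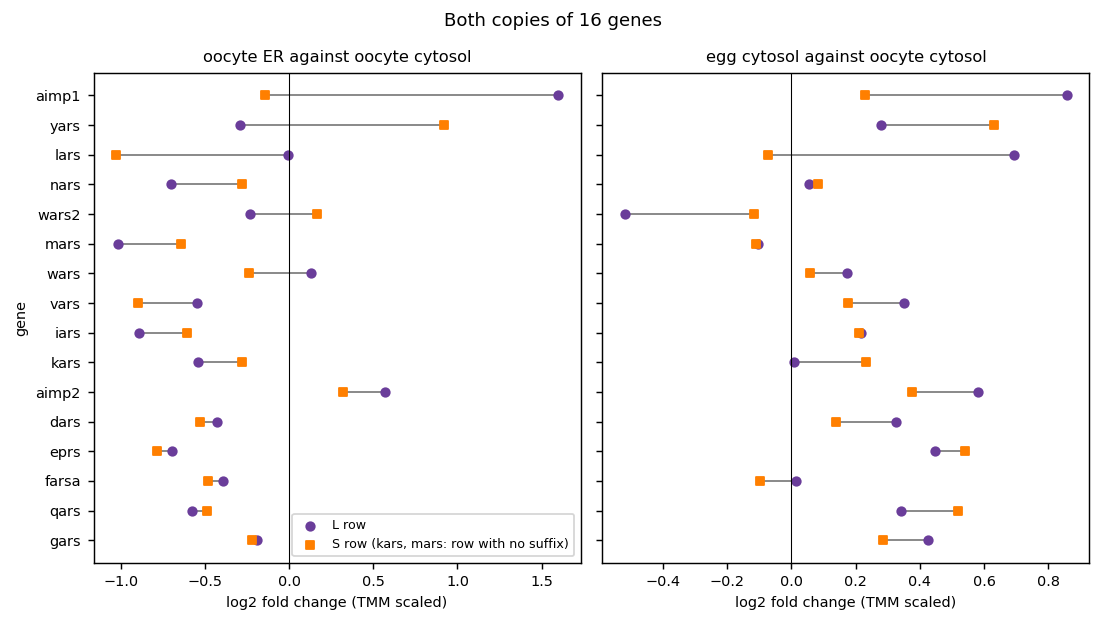
Log2 fold change (TMM scaled) of both rows of 16 genes in oocyte ER against cytosol (left) and egg against oocyte cytosol (right), with lines joining the copies of a gene. The copies of aimp1 are farthest apart in the left panel, 1.74 apart on the log2 scale.

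Other genes of tRNA biology were called in both directions. The lists covered charging partners, tRNA processing and export, tRNA modification, amino acid and stress signalling, and amino acid sensing. Of their 108 transcripts tested, 28 were higher and 30 lower in oocyte ER against cytosol. These counts are near the 24.3% and 24.8% of all transcripts called there. In egg against oocyte cytosol 21 were higher and 28 lower, where 18.4% and 18.6% of all transcripts were called. In egg ER against cytosol 17 were higher and 28 lower, where 18.4% and 21.7% were called. All calls of these lists used TMM scaling. Their values on the spike-in and attomolar scales are not given here, and a direction there may differ. The largest list, tRNA modification with 48 tested, had 7 higher and 19 lower in egg than in oocyte cytosol. In egg against oocyte pellet that list had 21 higher and 6 lower, where 22.3% and 21.4% of all transcripts were called. The tRNA exporter xpot.S was lower in the oocyte ER than in the cytosol, with a log2 fold change of -0.82 ± 0.058 (SE, edgeR adjusted p = 1.2e-10). The catalytic subunit of the tRNA ligase, rtcb.S, was higher in egg than in oocyte cytosol, with a change of 0.74 ± 0.10 (SE, edgeR adjusted p = 4.9e-06).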

How the data were processed

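Each fraction received 5 spike-in RNAs, and its total RNA was sequenced as a stranded library after ribosomal RNA depletion, per the labels' protocols. Reads were demultiplexed by the authors with bcl2fastq 2.20, then assigned to transcripts by kallisto 0.46.2 (submitters' processing notes). For the transcript set and the genome build the sources used here name none, and coordinates are left out. The deposited library tables hold estimated counts and TPM per transcript. The authors' deposited series table holds an attomolar signal per library, which by the labels comes from a regression of TPM on the spike-ins, each fraction's share in percent, a ratio of group means and a q-value, whose test the sources used here do not name. Another 22 columns of the series tables were not used.

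Estimated counts were rounded, spike-ins and 1 unnamed transcript were left out, and 25938 transcripts passing filterByExpr were tested in R 4.3.3 by the quasi-likelihood test of edgeR 4.0.16 (glmQLFit, glmQLFTest, TMM scaling) in 1 fit over 18 libraries with 12 residual degrees of freedom. P-values were Benjamini-Hochberg adjusted over all transcripts and called under 0.05. Of the 52 members 51 were tested, and cars2.S failed the filter. The authors' deposited shares sum the fractions of each replicate number, which ties a number to 1 set of fractions within a stage but not between stages. Deviations of same-numbered libraries from their group means correlated at 0.083 to 0.20 within a stage, where each library correlated best with its own number, and near 0 between stages. The spike-in scale set library sizes from the spike-in counts. The attomolar scale was tested with limma 3.58.1 on log2(aM + 0.01), and a fold change there understates that of low transcripts. DESeq2 1.42.0, limma on log2(TPM + 0.1) and log2(TPM + 1), no filter, the replicate number as a block, only the groups compared, each library left out in turn, and copies summed per gene were further alternatives. Simulated counts for egg against oocyte cytosol had 25330 transcripts tested. Of the changes set, 59.1% of 66 at 1.5-fold, 62.7% of 67 at 2-fold and 91.0% of 67 at 4-fold were recovered. Unchanged transcripts made up 5.33% of calls. All other transcripts had the same mean in every group and libraries were drawn independently, unlike these data. The rates therefore need not hold for the results above. Standard errors given with edgeR were derived as the absolute log2 fold change divided by the square root of the test's F statistic. Like the p-values, they reflect the spread among libraries, which includes counting error. The uncertainty of the estimated counts was not modelled separately.

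Members, lists, classes and tests were chosen with earlier results of these data known. Members with full statistics were taken from those with the 3 highest or 3 lowest called changes of the cytosolic or of the mitochondrial class in a comparison, and from a panel of eprs, mars, gars, kars, aimp1, aimp2, lars2 and fars2. From the other lists, the 2 called transcripts with the highest and the 2 with the lowest change could be named. The members with the 3 highest and the 3 lowest mean TPM, and genes whose copies were called in opposite directions, were named too. The rows hars.L, wars.L and wars.S are given by level only, chosen after their values were seen. The values of 1 mitochondrial member are not reported here, though it remains in the counts and medians. The gars and kars enzymes were counted as cytosolic by name. Depth ran from 23095791 to 37834030 counts per library.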

Additional observations from a re-analysis of the deposited data

Results flagged for a closer look

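The fraction difference of several members changed between oocyte and egg in a test of the interaction itself (edgeR, TMM scaled, 3 libraries a group). For the ER against the cytosol the change was -1.24 on the log2 scale for farsb.L, -0.87 for aars.L, -0.86 for aimp1.L, -0.63 for gars.L and -0.55 for hars2.L, all towards the cytosol. The change of wars2.L was 0.71, towards the ER, and was reversed on the spike-in scale (-0.26) and the attomolar scale (-0.42).

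For the pellet against the cytosol the change was -1.43 for aimp1.L, -1.26 for aars.L, -1.23 for eprs.S and -1.10 for vars2.L. It was 1.19 for wars2.L, which missed the threshold on the attomolar scale at 0.83. It was 0.73 for rars2.S, which missed it on the spike-in scale at 0.52 and on the attomolar scale at 0.30.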

How the results depend on the processing

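Depth and scale set the limits here. Low members such as lars.S and vars.L have few reads, and the scale decides every statement on absolute amounts. The cause of the differences between scales was not tested. DESeq2, only the groups compared and the class of cytosolic enzymes without gars and kars kept every count or median near its value, and no named member changed its call with DESeq2, without the filter, with only the groups compared or without any library.

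Counts of members called higher were, with spike-in scaling and with limma on attomolar values, 1 and 1 in oocyte ER against cytosol, 0 and 0 in oocyte pellet against cytosol, 0 and 0 in egg ER against cytosol, 0 and 0 in egg pellet against cytosol, 13 and 19 in egg against oocyte cytosol, 0 and 0 in egg against oocyte ER, 1 and 0 in egg against oocyte pellet, 0 and 0 in the ER interaction and 1 and 0 in the pellet interaction. Counts called lower that moved by over 1.5 times were 47 and 48 in oocyte pellet against cytosol, 0 and 0 in egg against oocyte cytosol, 30 and 8 in egg against oocyte ER, 0 and 0 in egg against oocyte pellet, 43 and 43 in the ER interaction and 17 and 13 in the pellet interaction. Limma on TPM gave the same counts with both pseudocounts: higher were 3 in oocyte ER against cytosol, 15 in oocyte pellet against cytosol, 0 in egg ER against cytosol, 3 in egg pellet against cytosol, 4 in egg against oocyte ER, 3 in egg against oocyte pellet, 1 in the ER interaction and 3 in the pellet interaction, and lower were 12 in egg against oocyte ER and 23 in the ER interaction. Without a filter 2 were lower in egg against oocyte ER. With copies summed, 18 genes were lower in oocyte ER against cytosol and 10 in oocyte pellet against cytosol, where fewer features were tested.

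Leaving out a library, egg against oocyte ER gave 11 to 15 higher and 2 to 5 lower. The replicate block left the 18 counts within 1.5 times, among them 10 higher in oocyte ER against cytosol. It changed no call of a named member. That block joined same-numbered libraries of both stages, so the pairing of fractions within a stage was not fitted.

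Reversed on the spike-in scale and on the attomolar scale were aars.L in oocyte ER against cytosol (-0.47 and -0.30), yars.S (-0.48 and -0.69) and aimp1.L (-0.48 and -0.66) in oocyte pellet against cytosol, yars.S (-1.18 and -1.20) and wars2.L (-1.30 and -1.33) in egg ER against cytosol, qars.S (-0.20 and -0.13) and aimp1.S (-0.059 and -0.011) in egg against oocyte ER, and wars2.L in the ER interaction (-0.26 and -0.42). On TPM with pseudocounts of 0.1 and 1, aars.L reversed in oocyte ER against cytosol (-0.125 and -0.123), as did yars.S (-0.131 and -0.126) and wars2.L (-0.254 and -0.25) in egg ER against cytosol.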
